A study of Homo sapiens with 12 samples.

Results

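The 10 genes described here are DDIT4, SESN1, SESN2, SESN3, DEPTOR, TSC1, TSC2, RRAGC, RRAGD and FLCN, whose products hold back the kinase complex mTORC1 or report nutrient supply to it. They were picked by symbol, with earlier results of these data known, and all 10 were found among the 55765 gene symbols of the count files. RNA-seq was done on Hs 578T cells, a single established triple-negative breast cancer (TNBC) line, that had been lentivirally transduced for the expression of GFP as control or of full-length exogenous NRF2, the transcription factor of the antioxidant response. Each transduced population was grown for 8 h in cystine-free medium, either with 0.8 mM L-cystine added back (with Cyss) or with none (without Cyss). This gave 4 groups of 3 libraries each, GFP with Cyss, GFP without Cyss, NRF2 with Cyss and NRF2 without Cyss. The serum, methionine and glutamine in the medium were the same in all groups. The labels do not say whether the replicates came from separate cultures, so p values measure only the spread between these libraries.

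mTORC1 drives protein synthesis and restrains autophagy when amino acids, growth factors and energy are at hand. Amino acids bring it to the lysosome through heterodimers of the Rag GTPases, RagA or RagB with RagC (RRAGC) or RagD (RRAGD), and folliculin (FLCN) is the GTPase-activating protein of RagC and RagD. The sestrins (SESN1, SESN2 and SESN3) bind GATOR2 and thereby weaken the amino acid signal, and SESN2 is a leucine sensor. At the lysosome mTORC1 needs the GTPase Rheb, which the TSC complex of TSC1 and TSC2 switches off. DDIT4 (also called REDD1) is a short-lived stress protein that acts on mTORC1 through the TSC complex, and DEPTOR binds mTOR and inhibits it directly. DDIT4 and SESN2 are known as genes that the stress factor ATF4 turns on during amino acid shortage.

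Each library had between 27250993 and 44596870 reads on genes, and 15.9 to 17.1% of the reads in a file were not assigned to a gene. Tests were made by the quasi-likelihood method of edgeR (edgeR QL) and adjusted by Benjamini-Hochberg (BH) over all genes tested. Calls needed a BH-adjusted p below 0.1 and a log2FC (log2 fold change) of more than 0.32 in size. As a check of the labels, NFE2L2, the gene of NRF2, had between 3647 and 4655 normalized counts in the 6 GFP libraries and between 6598 and 8396 in the 6 NRF2 libraries. Although the labels call the line an epithelial tumor cell line, the 7 epithelial markers listed ranged from nearly absent to clearly present. EPCAM, CLDN3 and CLDN7 had means of at most 2.42 normalized counts in any group, CDH1 of at most 10.8 and CLDN4 of 13.7 to 17.9, whereas the keratin genes KRT8 and KRT18 had means of 166 to 205 and 798 to 1295. The mesenchymal marker VIM had a mean of at least 145425. Of the 6 mesenchymal markers listed, 3 were called without Cyss in NRF2 cells, namely ZEB1 (log2FC 0.37), AXL (log2FC 0.33) and TWIST1 (log2FC -0.38), where 11.9% of all genes were called, and 0 in GFP cells by edgeR QL, where 2.1% were. KRT18 was called higher without Cyss in both (log2FC 0.39 in GFP and 0.66 in NRF2 cells), in GFP cells not without replicate 3 of GFP without Cyss (log2FC 0.29). AXL lost its call in NRF2 cells in 2 of 6 fits with a library left out. The part of these markers in the members' results was not tested. In a principal component analysis, GFP without Cyss replicate 3 lay at 4.81 on the first component, which held 43.8% of the variance, apart from the other two libraries of its group at -6.91 and -4.21. Values without that library are given where it changes the call of a member.

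To compare the genes with each other, TMM-normalized counts on one scale for all 12 libraries were divided by the exon length of each gene in kilobases and scaled to reads per library (the unit is counts per kilobase and 1e6 reads), and this quantity is called the level per length. In GFP cells with Cyss, RRAGC had the highest level per length with 13.8 ± 0.285 (SD, n = 3). It was followed by DDIT4 with 9.76 ± 0.481 and SESN2 with 6.21 ± 0.337 (SD, n = 3 each), and the libraries of these 3 genes did not overlap. DEPTOR at 5.2, FLCN at 5.10 and SESN3 at 4.66 came next, and their libraries overlapped, so that their order is not resolved. TSC2 had 2.65, TSC1 1.71, SESN1 0.949 and RRAGD only 0.126. Without Cyss the order at the top was different in both populations: DDIT4 came first with 38.8 ± 1.29 in GFP and 23.7 ± 0.932 in NRF2 cells, SESN2 second with 20.5 ± 1.19 and 21.0 ± 0.956, and RRAGC next with 13.4 ± 0.271 and 12.7 ± 0.264 (SD, n = 3 each). The order depends on the length used: with the longest transcript as length FLCN stood second in GFP cells with Cyss at a level per length of 13.6, TSC2 at 6.33 overlapped SESN2 at 6.21, and without Cyss RRAGC at 25.5 stood ahead of SESN2 at 20.5 in GFP cells.

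DDIT4 (chromosome 10, 74033678 to 74035794, plus strand) and SESN2 (chromosome 1, 28586029 to 28609002, plus strand) were the members with the largest changes, and because both are known ATF4 targets the bases before their start sites are shown here. The start sites are those of GENCODE 44 on GRCh37, the build the reads were mapped to. The 1000 bases before the start site of 9 of the 10 genes were searched on both strands for TGATGNAA, the core of the composite element that ATF4 binds together with a C/EBP protein. The core was found in 4 of the 9 windows, against 11.5% of the 18013 windows of protein-coding genes. These 4 matches are shown with their surroundings, read along the strand of the gene, with the match in capitals. In SESN2 and FLCN the capitals read TGATGNAA on the opposite strand.
DDIT4, chr10:74032700-74032779, plus strand: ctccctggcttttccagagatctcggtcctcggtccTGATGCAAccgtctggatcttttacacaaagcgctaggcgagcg
SESN2, chr1:28585697-28585776, plus strand: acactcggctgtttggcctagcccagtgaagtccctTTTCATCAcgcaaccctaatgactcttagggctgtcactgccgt
TSC2, chr16:2097840-2097919, plus strand: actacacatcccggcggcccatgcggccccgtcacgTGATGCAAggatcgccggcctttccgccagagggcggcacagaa
FLCN, chr17:17140904-17140983, minus strand: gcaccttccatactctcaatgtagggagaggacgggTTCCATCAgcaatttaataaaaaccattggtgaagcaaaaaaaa

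The matches began 942 bases before the start site in DDIT4, 296 in SESN2, 110 in TSC2 and 465 in FLCN. So the core stood before both genes that rose without Cyss and also before TSC2 and FLCN, for which no call was made in any comparison. Of the other letters searched in the same windows, the E-box CACGTG of lysosomal genes was found in 5 of 9 (TSC1, TSC2, RRAGC, RRAGD and FLCN), against 18.4% of all windows. In TSC2 such an E-box began 114 bases before the start site and shared its last bases with the ATF4 core. The antioxidant response element core TGACNNNGC, which NRF2 binds, was found in 4 of 9 (DDIT4, TSC1, TSC2 and RRAGC) against 32.5%, and the forkhead core TGTTTAC in 1 of 9 (TSC1) against 10.4%. A match is a run of letters and not evidence of binding, and these counts were not tested.

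In GFP cells, removal of Cyss for 8 h raised DDIT4 and SESN2, and no other member was called. DDIT4 had 670, 710 and 644 normalized counts in the 3 libraries with Cyss and 2662, 2779 and 2604 in those without. The groups lay far apart, and the fitted change was 3.96-fold (log2FC 1.99, 95% interval 1.89 to 2.09), the smallest p among the 17452 genes tested. SESN2 had 683, 762 and 724 normalized counts with Cyss and 2247, 2389 and 2525 without. It rose 3.29-fold (95% interval of the log2FC 1.61 to 1.83), with the fifth smallest p. The BH-adjusted p by edgeR QL was 1.21e-10 for DDIT4 and 7.86e-10 for SESN2. By the rule for calls, 2 of the 10 members were called higher and 0 lower. Of all genes tested, 2.1% were called, 1.57% higher and 0.533% lower. The median log2FC of the 10 members was 0.050 and that of all genes 0.0015.

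Of the other sestrins, SESN1 had 253, 211 and 233 normalized counts with Cyss and 211, 217 and 193 without (log2FC -0.16, BH-adjusted p = 0.376 by edgeR QL). SESN3 had 1883, 1578 and 1514 with Cyss and 1733, 1454 and 1196 without (log2FC -0.18, BH-adjusted p = 0.407 by edgeR QL). Both sets of libraries overlapped, and the intervals of the log2FC, -0.34 to 0.018 for SESN1 and -0.40 to 0.033 for SESN3, included 0 and also decreases beyond the threshold of size. Without GFP without Cyss replicate 1, SESN3 had a log2FC of -0.33 and was called (BH-adjusted p = 0.0996 by edgeR QL). DEPTOR, the mTOR-binding inhibitor, had 466, 446 and 465 normalized counts with Cyss and 617, 574 and 398 without. Its libraries without Cyss thus spread to both sides of those with Cyss, and the log2FC of 0.21 was not called (BH-adjusted p = 0.378 by edgeR QL). The low library was GFP without Cyss replicate 3, and without it DEPTOR was called higher with a log2FC of 0.38 (BH-adjusted p = 0.00781 by edgeR QL).

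The subunits of the TSC complex and the genes of the Rag arm were not called in GFP cells. TSC2 had 1800, 1826 and 1865 normalized counts with Cyss and 1936, 1948 and 2077 without, higher in every library without Cyss, but its log2FC of 0.12 was not called (BH-adjusted p = 0.171 by edgeR QL). Groups that do not overlap were seen for 3 of the 10 members, DDIT4, SESN2 and TSC2, and for 23.6% of all genes tested. TSC1, the scaffold of the TSC complex, had a log2FC of 0.059 (95% interval -0.039 to 0.16). RRAGC, which carries nearly all of the RagC and RagD message, had a log2FC of -0.052 (95% interval -0.13 to 0.027) and FLCN one of 0.042 (95% interval -0.049 to 0.13). For these 3 genes, a change as large as the 0.32 threshold lies outside the interval. For RRAGD it does not, since its raw counts numbered only 9 to 29 per library and its interval ran from -0.70 to 0.45.

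In NRF2 cells, removal of Cyss again raised SESN2 and DDIT4 and in addition lowered SESN3. SESN2 had 781, 727 and 763 normalized counts with Cyss and 2361, 2404 and 2571 without, a 3.23-fold rise (log2FC 1.69, BH-adjusted p = 1.25e-10 by edgeR QL) and the second smallest p of 17266 genes. DDIT4 had 707, 655 and 675 with Cyss and 1673, 1562 and 1674 without, a 2.41-fold rise (log2FC 1.27, BH-adjusted p = 1.94e-09 by edgeR QL). SESN3, a sestrin known as a target of the FOXO factors, had 1659, 1655 and 1573 with Cyss and 1233, 958 and 751 without. Every library without Cyss was lower, although they differed widely from each other, and SESN3 fell to 0.600 of its level (log2FC -0.74, BH-adjusted p = 3.91e-04 by edgeR QL, standard error 0.118). With each library left out in turn it was called every time, with a log2FC between -0.93 and -0.57, the smallest without NRF2 without Cyss replicate 3. Thus 2 members were called higher and 1 lower, against 11.9% of all genes called in these cells, 6.81% higher and 5.14% lower. The median log2FC of the members was 0.0013 and that of all genes -0.012.

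The remaining members were not called in NRF2 cells. SESN1 had 215, 278 and 230 normalized counts with Cyss and 184, 223 and 213 without (log2FC -0.23, BH-adjusted p = 0.164 by edgeR QL). DEPTOR had 366, 386 and 395 with Cyss and 412, 344 and 302 without, with a log2FC of -0.12 and overlapping libraries. TSC1 was higher in all 3 libraries without Cyss, with 1166, 1130 and 1110 against 1003, 1022 and 1010, and its adjusted p was 0.0378, but its log2FC of 0.16 lay below the threshold of size. TSC2 and RRAGC had log2FC of 0.022 and -0.020. RRAGD had 34.1, 25.4 and 30.7 with Cyss and 23.4, 23.7 and 23.7 without, lower in every library but not called (log2FC -0.34, BH-adjusted p = 0.311 by edgeR QL). FLCN had a log2FC of 0.13 (BH-adjusted p = 0.113 by edgeR QL). Groups that do not overlap were seen for 5 of the 10 members and for 37.8% of all genes.

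**Figure D1:**
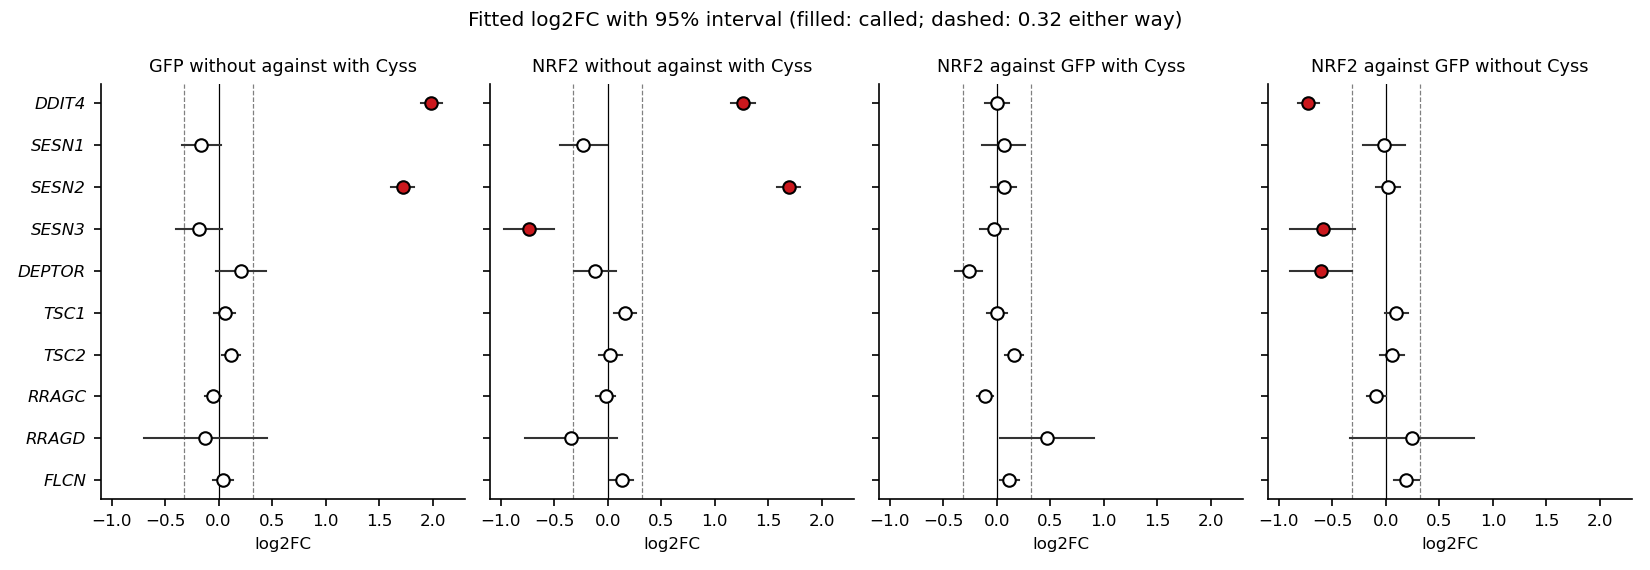
Fitted log2FC (horizontal axis) of each of the 10 genes (vertical axis) in the 4 comparisons, with 95% intervals. Filled points were called by edgeR's test at an adjusted p under 0.1 and a log2FC beyond 0.32 (dashed lines). DDIT4 and SESN2 are filled to the right in both comparisons of media, SESN3 is filled to the left in NRF2 cells, no point is filled with Cyss, and DDIT4, SESN3 and DEPTOR are filled to the left for NRF2 against GFP cells without Cyss.

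The make-up of the sestrin message is given as a description, with no test. Per exon length, SESN2 made up 52.6 ± 3.90% of sestrin mRNA in GFP cells with Cyss and 80.5 ± 3.42% without (SD, n = 3 each). In NRF2 cells its share was 53.9 ± 1.74% with and 85.3 ± 2.68% after removal of Cyss (SD, n = 3 each). The share of SESN3 was 39.4 ± 3.49% against 16.2 ± 3.23% in the GFP groups and 38.0 ± 0.790% against 11.2 ± 2.87% in the NRF2 groups (SD, n = 3 each). The group means of SESN1 lay between 3.33 and 8.16% of the total. Shares of a sum depend on each other, so a rise of SESN2 by itself lowers those of SESN3 and SESN1. In GFP cells neither SESN3 (log2FC -0.18) nor SESN1 (log2FC -0.16) was called. No library with Cyss overlapped one without in the share of SESN2, which ranged from 48.1 to 55.3% with Cyss and from 77.1 to 88.1% without. With the longest transcript as length the mean share of SESN2 was 49.4% with and 78.4% without Cyss in GFP cells, and 50.7% and 83.5% in NRF2 cells. Among the other paralogue pairs, RRAGC held 98.6 to 99.2% of the RagC and RagD message as group means, and TSC2 between 60.9 and 63.5% of the TSC1 and TSC2 message.

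Whether NRF2 acted on these genes was asked in each medium. With Cyss, 0 of the 10 members were called between NRF2 and GFP cells by edgeR QL, against 1.56% of all genes, 1.36% higher and 0.201% lower. DDIT4 had a log2FC of 0.0052 (95% interval -0.11 to 0.12) and SESN3 one of -0.026 (95% interval -0.15 to 0.10), both with overlapping libraries. DEPTOR was lower in every NRF2 library, 366 to 395 normalized counts against 446 to 466, with a log2FC of -0.26 and an adjusted p of 0.0306. TSC2 was higher in every NRF2 library, 1959 to 2143 against 1800 to 1865, with a log2FC of 0.16 and an adjusted p of 0.0489 from the same edgeR test. Both differences lay below the threshold of size. At an unadjusted p under 0.05, 4 members differed in this comparison, DEPTOR, TSC2, RRAGC (log2FC -0.11) and FLCN (log2FC 0.12), against 19% of all genes at that p. All 4 had groups that did not overlap, as had 24.7% of all genes. DESeq2's Wald test also called none of the members here.

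Without Cyss, DDIT4, SESN3 and DEPTOR were lower in NRF2 than in GFP cells, and 0 members were higher. This compares with 10.1% of all genes called, 5.98% higher and 4.09% lower. DDIT4 ranged from 1562 to 1674 normalized counts in NRF2 cells and from 2604 to 2779 in GFP cells, a log2FC of -0.73 with the seventh smallest p of 17297 genes. SESN3 had 1233, 958 and 751 in NRF2 and 1733, 1454 and 1196 in GFP cells, with a log2FC of -0.59 (BH-adjusted p = 0.0187 by edgeR QL, standard error 0.153). DEPTOR had 412, 344 and 302 in NRF2 and 617, 574 and 398 in GFP cells, with a log2FC of -0.60 (BH-adjusted p = 0.0142 by edgeR QL, standard error 0.147). In both genes the highest NRF2 library overlapped the lowest GFP library, GFP without Cyss replicate 3, which stood apart on the first component. Without it, SESN3 had a log2FC of -0.71 and DEPTOR one of -0.77, and both were called whichever library was left out. SESN2 had overlapping libraries and a log2FC of 0.022 (95% interval -0.088 to 0.13). FLCN was higher in every NRF2 library, 1861 to 2065 against 1653 to 1822 normalized counts, with a log2FC of 0.19 below the threshold of size (BH-adjusted p = 0.0359 by edgeR QL).

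The difference between both responses to Cyss removal was tested as the interaction term of a fit to the 12 libraries, for which a BH-adjusted p below 0.1 sufficed. It was called for 2 of the 10 members, both with the lower response in NRF2 cells, against 15.1% of all 17674 genes tested, 8.97% higher and 6.13% lower. For DDIT4 the response in NRF2 cells was smaller by a log2 value of -0.72 (95% interval -0.86 to -0.57, BH-adjusted p = 1.22e-04 by edgeR QL), the second smallest p of all genes. It was called in every fit, including each that left out a library. For SESN3 the difference was -0.55 (95% interval -0.92 to -0.19, BH-adjusted p = 0.0728 by edgeR QL), and this call was lost in 8 of 12 fits with a library left out, with BH-adjusted p up to 0.198 by edgeR QL. It was kept when replicate 1 or 3 of NRF2 without Cyss, replicate 1 of GFP with Cyss or replicate 3 of GFP without Cyss was left out, and lost with any of the other 8, with a value between -0.59 and -0.41. DEPTOR had a difference of -0.33 (BH-adjusted p = 0.257 by edgeR QL), which became -0.50 and was called (BH-adjusted p = 0.0173 by edgeR QL) without GFP without Cyss replicate 3. SESN2 had a difference of -0.028 with a 95% interval from -0.19 to 0.13. The interval for DDIT4 lay wholly below that for SESN2, but the difference between both genes was not tested. The intervals of TSC1 (-0.025 to 0.24), TSC2 (-0.23 to 0.043), RRAGC (-0.078 to 0.14) and FLCN (-0.056 to 0.23) all included 0, as did those of SESN1 and RRAGD.

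For any member whose groups did not overlap, the two-sided exact permutation test on log2 counts gave p = 0.1. This is the smallest that 3 libraries against 3 allow. The same permutation test gave p = 0.2 for SESN3 and for DEPTOR between NRF2 and GFP cells without Cyss, where their groups overlapped. Reads were counted without regard to strand, so that reads of overlapping genes on opposite strands cannot be told apart. Among the members this touches TSC1, of whose exon bases 1.98% lie under exons of GFI1B on the other strand, and TSC2, with 3.82% under exons of PKD1. The other 8 members share no exon bases with another listed gene in GENCODE 44. The comparisons of media and of populations share libraries, so that their values are set side by side and not correlated.

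The wider mTORC1 pathway was followed with 67 further genes in 7 lists, of which 65 were tested. In GFP cells 3 of the 65 were called, all higher without Cyss, which is 4.62% against 2.1% of all genes. These were EIF4EBP1 (log2FC 0.69, standard error 0.0456), which encodes the translation repressor 4E-BP1 that mTORC1 phosphorylates, RHEBL1 (log2FC 0.57), a paralogue of Rheb, and TFEB (log2FC 0.39), the lysosomal transcription factor that mTORC1 keeps in the cytoplasm. EIF4EBP1 was called whichever library was left out, whereas RHEBL1 and TFEB were each lost in 5 of 6 such fits and at an adjusted p under 0.05. Without replicate 3 of GFP without Cyss, RHEBL1 had a log2FC of 0.34 and TFEB one of 0.28. None of the 10 subunits of the mTOR complexes, the 10 Rag and Ragulator partners, the 12 subunits of GATOR1, GATOR2 and KICSTOR, the 4 amino acid sensors tested or the 13 growth factor and energy inputs tested was called in GFP cells, and the medians of these 5 lists lay between -0.041 and 0.078. In NRF2 cells 7 were called higher and 1 lower, which is 12.3% against 11.9%. Besides EIF4EBP1 (log2FC 0.56), TFEB (log2FC 0.50) and RHEBL1 (log2FC 0.39), these were RICTOR (log2FC 0.45), the defining subunit of mTORC2, IRS1 (log2FC 0.45), the insulin receptor substrate, C12orf66 (log2FC 0.60), a subunit of KICSTOR, GATSL3 (log2FC 0.72), which encodes the arginine sensor CASTOR1, and, lower, the DDIT4 paralogue DDIT4L (log2FC -0.69). The adjusted p of DDIT4L was 0.0124 from the same edgeR test, and its direction was opposite to that of DDIT4. GATSL3 was not called without replicate 2 of NRF2 with Cyss (log2FC 0.46), its lowest library, and RHEBL1 was lost in 4 of 6 fits with a library left out.

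Between NRF2 and GFP cells, 0 of the 65 pathway genes were called with Cyss. Without Cyss 2 were called, RICTOR (log2FC 0.41) and IRS1 (log2FC 0.48), which is 3.08% against 10.1% of all genes. The interaction was called for 14, of which 9 were higher and 5 lower, or 21.5% against 15.1%. With a library left out, the call was lost for MTOR in 10 of 12 fits, TBC1D7 in 9 and PRKAG2 in 7. It was also lost for NPRL2 in 6, PDPK1 in 5, MIOS in 4 and PRR5L in 2. PRKAB2, named here after its values were seen, lost it in 9. The call was kept for RICTOR, IRS1, SEH1L, FNIP1 and EIF4EBP2 in every such fit. Among those called higher the largest were RICTOR (0.53), IRS1 (0.44) and SEH1L (0.39), a subunit of GATOR2, and among those called lower LAMTOR4 (-0.32), a subunit of the Ragulator that anchors the Rags, which was lost in 1 of 12 fits with a library left out. DDIT4L had -0.53 and was not called (BH-adjusted p = 0.141 by edgeR QL). C7orf60, which encodes the S-adenosylmethionine sensor SAMTOR and is named here after its values were seen, had a log2FC of -0.24 in GFP and -0.30 in NRF2 cells without Cyss, lower in every library of both but below the threshold of size. LARS of the same list, also named after its values were seen, went the other way and was called in neither population. It had 7557 to 7687 normalized counts without against 6315 to 6683 with Cyss in GFP cells, and 7105 to 7460 against 5996 to 6108 in NRF2 cells. Groups that did not overlap were seen for 3 of the 4 sensors tested in each population, against 23.6% and 37.8% of all genes.

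**Figure D2:**
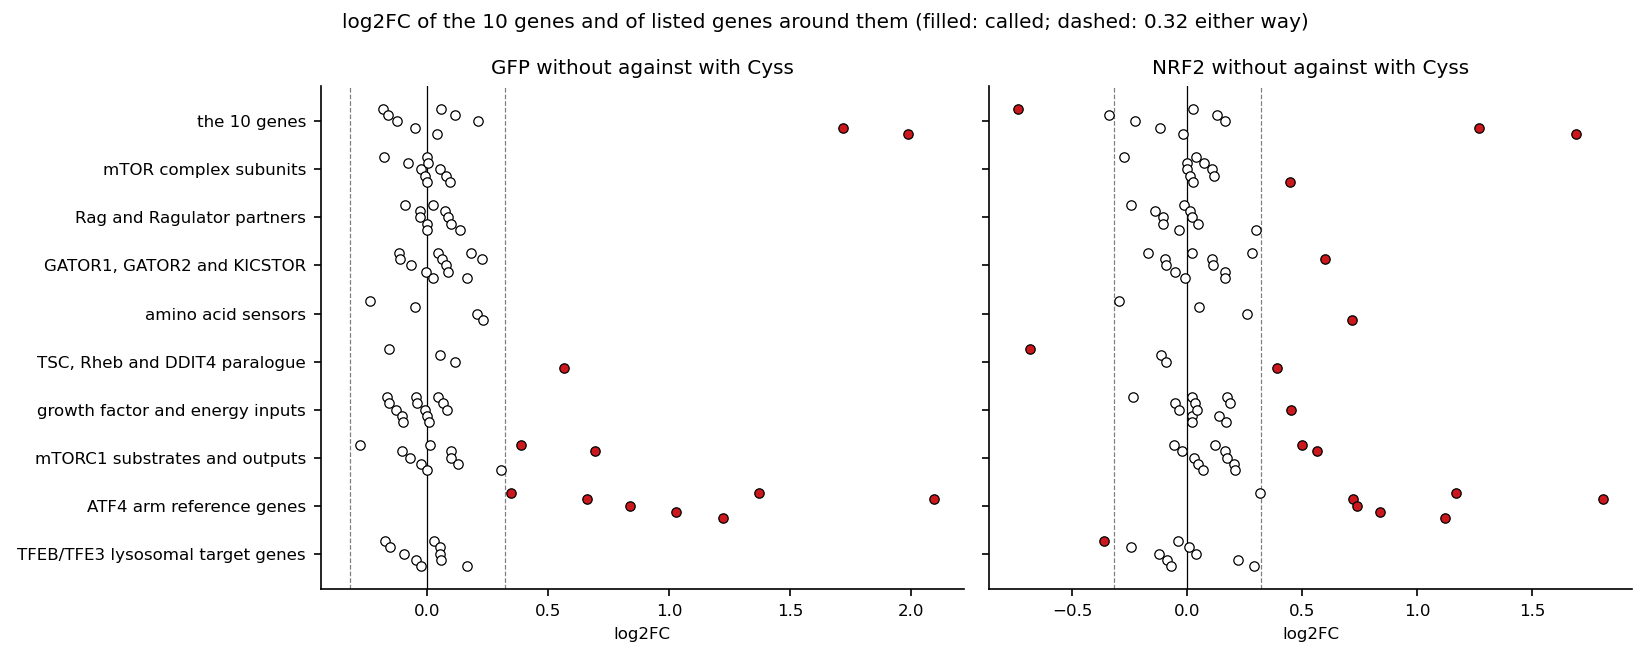
log2FC without against with Cyss (horizontal axis) in GFP cells on the left and NRF2 cells on the right, with 1 point for each gene tested, for the 10 genes and 9 lists around them (vertical axis). Filled points were called, and dashed lines mark 0.32 either way. The ATF4 arm lies to the right in both populations, while most subunits of the mTOR, Rag, GATOR and TSC machinery lie within the dashed lines.

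Genes on the ATF4 arm and TFEB targets were set beside the members as reference. In GFP cells 7 of the 7 ATF4 arm genes were called higher, against 1.57% of all genes. The median log2FC of the list was 1.03. The call of CEBPB (log2FC 0.35) was lost in 2 of 6 fits with a library left out. The largest changes were those of CHAC1 (4.28-fold), a glutathione-degrading enzyme, ASNS (log2FC 1.37), asparagine synthetase, and the factor ATF3 (log2FC 1.22). In NRF2 cells 6 of 7 were called higher, against 6.81% of all genes, with a median of 0.84, CHAC1 again first (log2FC 1.81). The interaction was called for 4 of these 7, against 15.1% of all genes. It was lower for 3, with DDIT3 (-0.35) and CHAC1 (-0.29) the furthest, and higher for 1, CEBPB (0.39). With a library left out, the call was lost for DDIT3 in 5 and for CHAC1 in 3 of 12 fits. The value of -0.72 for DDIT4 was larger in size than that of each of these 7 genes, with no test between genes. Of the 10 lysosomal TFEB and TFE3 targets tested, 0 were called in GFP cells by edgeR QL. In NRF2 cells 1, GLA, was called lower (log2FC -0.36), a call lost in 1 of 6 fits with a library left out. Of all genes, 2.1% were called in GFP and 11.9% in NRF2 cells. The median of the list was 0.0016 in GFP and -0.056 in NRF2 cells, while TFEB itself was called higher in both. The call of TFEB in GFP cells was lost in 5 of 6 fits with a library left out. At an unadjusted p under 0.05, 3 of the 10 differed in GFP cells, SQSTM1 (log2FC -0.16) and GLA (log2FC -0.17) lower and WIPI1 (log2FC 0.17) higher, named here after their values were seen, against 18.1% of all genes at that p. Of the 10, 6 had groups that did not overlap, against 23.6% of all genes. Among these, CTSD, LAMP1 and WIPI1 were higher without Cyss and SQSTM1, UVRAG and GLA lower. CTSD, LAMP1 and UVRAG are also named after their values were seen.

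Over the 12 libraries, the genes most like each member were found by Pearson's r of log2 normalized counts among 13790 genes, as a description in which all points share the 4 groups. DDIT4 was most like INHBE (r = 0.990), PSAT1P3, SLC1A4, PCK2 and PSAT1, the first an activin subunit and the others, apart from the pseudogene PSAT1P3, an amino acid transporter and enzymes of phosphoenolpyruvate and serine synthesis. PSAT1P3 and PSAT1 are near copies, so the split of reads between them is uncertain. SESN2 was most like GPT2 (r = 0.998), HERPUD1, CEBPG, GARS and MTHFD2, among them an alanine transaminase, a glycyl-tRNA synthetase and an enzyme of mitochondrial folate metabolism. The 5 genes nearest to DDIT4 and the 5 nearest to SESN2 had no gene in common, although both members had r = 0.948 with each other. SESN3 was most like CRISPLD1 (r = 0.978), PIK3R1, SDPR, PCDH18 and CNKSR3, and DEPTOR most like NUAK1 (r = 0.965), SAMD12, ZNF788, AC004381.6 and LINC00883. For TSC1 the nearest gene was MAP4 (r = 0.973), for TSC2 ITPK1 (r = 0.929), for RRAGC ATAD2 (r = 0.925), for FLCN TOX2 (r = 0.938), for RRAGD PRKCE (r = 0.893) and for SESN1 ZNF200 (r = 0.884).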

How the data were processed

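The authors sequenced single-end mRNA libraries. Alignment to hg19 (GRCh37) used TopHat2 2.1.0 with Bowtie, and HTSeq 0.11.2 counted reads over exons, ignoring strand, in its intersection-nonempty mode. The deposited values are raw counts, 1 per gene symbol and library, for 12 libraries. The annotation used for counting is not given in the sources used here. Here, 523 rRNA genes were removed as in the methods. In each comparison of 6 libraries, genes whose mean TMM-normalized count reached 10 in either group were kept and TMM was estimated again. Tests were the quasi-likelihood tests of edgeR 4.0.16 (R 4.3.3), BH-adjusted over all genes tested, after the code was tested on simulated data. Intervals are 1.96 standard errors either way. DESeq2 1.42.0, the tool of the study, served as alternative. The members and gene lists were chosen with earlier results of these data known. From each list, at most the 3 called genes with the largest log2FC in a comparison were named, apart from genes said to be named after their values were seen. Lengths, positions and sequences came from GENCODE 44 and the GRCh37 genome, and plots from Python 3.11.15 with matplotlib 3.10.9. Replicates differed by more than counting noise (chi-square per degree of freedom 2.22 to 13.0). Other settings were library size or DESeq2 scaling, other filters and thresholds, all 12 libraries in the fit, a replicate block, and leaving out each library. Among the members, counting error weighs most for RRAGD and next for SESN1, which had 173 to 287 raw reads per library. Of the other genes named, GATSL3, DDIT4L, RHEBL1 and BBC3 also had few counts, with group means of at most 99.6 normalized counts.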

Additional observations from a re-analysis of the deposited data

Results flagged for a closer look

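The response of DDIT4 to Cyss removal differed between NRF2 and GFP cells by -0.72 on the log2 scale in the interaction test (BH-adjusted p = 1.22e-04 by edgeR QL), and without Cyss each NRF2 library lay below each GFP library. The response of SESN3 differed by -0.55 (BH-adjusted p = 0.0728 by edgeR QL), with overlapping libraries without Cyss, and the call was lost in 8 of 12 fits with a library left out. In groups of 3 no single library was tested as an outlier.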

How the results depend on the processing

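The counts of members called kept within 1.5 times their value under the other settings, except that without a fold change threshold 2 members were called between NRF2 and GFP cells with Cyss, and that the interaction was called for 1 member with DESeq2's Wald test and for 1 at an adjusted p under 0.05. With each library left out in turn, 2 to 3 members were called in GFP cells and 1 to 3 in the interaction. The responses of DDIT4 and SESN2 were called in both populations in every setting. Signs turned for genes that were not called. With library size only, TSC2 had -0.036 in NRF2 cells, SESN2 -0.0094 between populations without Cyss and RRAGC -0.020 in the interaction. With no filter on low counts, DDIT4 had -0.0067 and TSC1 -0.0078 between populations with Cyss, and the interaction of DEPTOR was called. Leaving out libraries turned RRAGD in GFP cells (-0.38 to 0.16), TSC2 in NRF2 cells (-0.021 to 0.055), with Cyss DDIT4 (-0.028 to 0.043), SESN1 (-0.057 to 0.13), TSC1 (-0.013 to 0.015) and SESN3 (-0.087 to 0.073), without Cyss SESN1 (-0.070 to 0.064), SESN2 (-0.021 to 0.067) and RRAGD (-0.041 to 0.50), and in the interaction SESN1 (-0.15 to 0.047), SESN2 (-0.070 to 0.015) and RRAGD (-0.50 to 0.041). The cause was not tested. Of the 65 pathway genes, 7, 22, 2 and 24 were called in the 4 comparisons without a fold change threshold, against 3, 8, 0 and 2 with it. At an adjusted p under 0.05, 1 was called in GFP cells and 8 in the interaction. With libraries left out, 1 to 3 were called in GFP cells, 2 to 4 between populations without Cyss and 7 to 20 in the interaction.

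Deviations of same-numbered libraries of different groups had correlations between -0.23 and 0.25, and those of differently numbered ones between -0.39 and 0.32. Whether same-numbered libraries share a batch cannot be told from these values, and the labels do not say. SESN3 counts fell from replicate 1 to replicate 3 in each of the 4 groups. With a replicate block, the members called numbered 2, 3, 0, 3 and 2, as without it, and the value of SESN3 in the interaction was -0.57. Library size scaling moved the median of all genes by less than 0.1 (to -0.071 in NRF2 cells). The few counts of RRAGD limit what could be detected there. Only 3 libraries a group, 1 cell line and 1 time point were measured, and mRNA levels do not measure mTORC1 activity.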

Other observations

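SESN1 and SESN2 are known p53 targets and SESN3 is a known FOXO target, so lists of other such targets were read beside them. In GFP cells 0 of the 9 p53 targets tested were called without Cyss by edgeR QL, with a median log2FC of -0.041, where 2.1% of all genes were called. In NRF2 cells 3 were called higher, CDKN1A (log2FC 1.44, 95% interval 1.24 to 1.64), which encodes the cell cycle inhibitor p21, BBC3 (log2FC 0.58), a pro-apoptotic BH3 protein, and XPC (log2FC 0.40), a DNA repair factor, where 6.81% of all genes were called higher. The same 3 genes had positive values in GFP cells. CDKN1A had 0.45 and XPC 0.24, with groups that did not overlap, and BBC3 0.50 with groups that did. CDKN1A ranged widely in GFP cells without Cyss, from 1330 to 2301 normalized counts. Groups that did not overlap were seen for 3 of the 9 in GFP cells, against 23.6% of all genes. Besides CDKN1A and XPC this was MDM2, named here after its values were seen. MDM2 went the other way, with 1152 to 1210 normalized counts without against 1328 to 1461 with Cyss. The interaction was not called for BBC3 (0.076) or XPC (0.16), and BBC3 in NRF2 cells was lost in 3 of 6 fits with a library left out, with a log2FC of 0.36 without replicate 3 of NRF2 without Cyss. Without Cyss, 2 of the 9 were called higher in NRF2 than in GFP cells, CDKN1A (log2FC 1.01) and ZMAT3 (log2FC 0.34), against 5.98% of all genes called higher. The interaction was called for 3 of the 9, against 15.1% of all genes. These were CDKN1A at 0.99 (BH-adjusted p = 0.00615 by edgeR QL), ZMAT3 at 0.35 and TP53I3 at -0.40. With a library left out, ZMAT3 was lost in 2 of 6 fits between populations and in 2 of 12 fits of the interaction. SESN1 was called in none of these comparisons.

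Of the 7 FOXO targets tested, 0 were called in either population without Cyss by edgeR QL, where 2.1% of all genes were called in GFP and 11.9% in NRF2 cells. Their medians were 0.14 in GFP and 0.15 in NRF2 cells, whereas SESN3 fell in NRF2 cells by 0.74 on the log2 scale. Groups that did not overlap were seen for 3 of the 7 in GFP and 6 in NRF2 cells, against 23.6% and 37.8% of all genes. In NRF2 cells 5 of the 7 had positive and 2 negative values. Between the populations without Cyss 2 of the 7 were called, against 10.1% of all genes. TXNIP, an arrestin that limits glucose uptake, stood lower in the NRF2 population (log2FC -0.42) and SOD2, the mitochondrial superoxide dismutase, was higher (log2FC 0.36).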
